A study of Mus musculus with 4 samples.

Results

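Chemokines and their receptors were taken from spatial expression data of mouse brain as the annotated features named Ccl, Cxcl, Ccr, Cxcr or Ackr with a number. Of 63 such features, 51 had at least 1 count over tissue, out of 20457 features with counts. The remaining 12 had none and are not described further: they are the entries for Ccl19, Ccl21a, Ccl21b, Ccl21c, Ccl27b and Cxcl15, and 2 extra entries for Ccl27a. Whether the assay held probes for these 12 was not checked, so their lack of counts does not show a lack of expression. Cxcl11 was not among the features. The data came from formalin-fixed, paraffin-embedded brain of mice that had received a tumour that was later resected. They comprise 4 capture areas of day 11, of which 2 carry the label Vehicle and 2 the label TREAT. The study set animals given a hydrogel against animals without it, with 4 animals in all, and its title names glioblastoma. Each area label carries a pair of numbers (1+4 or 2+3), the areas held 2 or 3 separate pieces of tissue, and the labels tie neither to an animal. Neither strain, age nor the identity of the inoculated cells is given in the sources used here. As nothing ties areas to animals, p-values measure the spread between capture areas only.

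Chemokines are small secreted proteins that bind receptors of the G protein-coupled family on leukocytes and steer their movement along a gradient. Inflammatory chemokines are induced by interferons, NF-kB signalling and injury, and homeostatic ones are made constantly in particular tissues. Atypical receptors (Ackr) bind chemokines without the usual signal and take them up or carry them. In gliomas, Ccl2 and related ligands of Ccr2 are known for drawing monocytes, and Cxcl9 and Cxcl10 for drawing T cells that carry Cxcr3.

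Of the members, 14 lie on chromosome 11, which holds many CC ligands, 12 on chromosome 9, which holds many receptors, and 9 on chromosome 5, which holds many CXC ligands (RefSeq, GRCm38.p6, the same build as mm10). Cxcl9 (chr5:92321331-92328079, minus strand) and Cxcl10 (chr5:92346638-92348889, minus strand) are neighbours. The 250 bases in front of the start site are shown for Cxcl10 and Cxcl9, which had the widest gaps between tumour and brain among the CXC ligands, and for Cxcl2, which was also far higher in tumour but is a ligand of another receptor. Capitals mark the interferon-response core GAAANNGAA and NF-kB motifs, each searched on both strands.
Cxcl10: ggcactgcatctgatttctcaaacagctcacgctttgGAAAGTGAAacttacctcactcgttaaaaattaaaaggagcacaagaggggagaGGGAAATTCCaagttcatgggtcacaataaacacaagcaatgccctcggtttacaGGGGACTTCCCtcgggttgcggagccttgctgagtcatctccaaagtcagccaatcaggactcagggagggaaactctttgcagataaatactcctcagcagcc
Cxcl9: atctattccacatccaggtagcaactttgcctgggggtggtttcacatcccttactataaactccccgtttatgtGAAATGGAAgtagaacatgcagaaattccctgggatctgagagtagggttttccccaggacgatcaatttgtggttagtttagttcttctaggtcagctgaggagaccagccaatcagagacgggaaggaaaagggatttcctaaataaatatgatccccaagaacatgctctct
Cxcl2: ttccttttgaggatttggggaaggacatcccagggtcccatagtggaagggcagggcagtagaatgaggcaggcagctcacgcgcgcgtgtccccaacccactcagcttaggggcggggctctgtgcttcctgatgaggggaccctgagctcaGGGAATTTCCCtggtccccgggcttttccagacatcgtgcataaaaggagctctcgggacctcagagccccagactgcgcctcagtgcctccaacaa

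These windows are chr5:92348890-92349139 (minus strand) for Cxcl10, chr5:92328080-92328329 (minus strand) for Cxcl9 and chr5:90903649-90903898 (plus strand) for Cxcl2. Cxcl10 held the interferon-response core 213 to 205 bases before its start and NF-kB motifs at 159 to 150 and, as 3 overlapping matches over both strands, at 104 to 94. Cxcl9 held the interferon-response core at 175 to 167, and Cxcl2 held 2 overlapping NF-kB matches, 1 on each strand, at 97 to 87. A window was found for 37 of the 51 members. The interferon-response core was in 7 of these 37 (18.92%: Ccl1, Ccl3, Ccr2, Cxcl9, Cxcl10, Cxcl14 and Cxcr1), against 8.18% of all 27025 genes with a window of this length in the table. The NF-kB motif was in 11 of 37 (29.73%, against 8.23% of all genes). The STAT core TTCNNNGAA was in 4 of 37 (10.81%, against 8.13%). A match is a description of the letters and does not show binding.

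The spots over tissue with at least 500 UMIs numbered 3157 and 3485 in the Vehicle areas 1+4 and 2+3, and 3349 and 3012 in the TREAT areas 1+4 and 2+3. Library totals ran from 33862696 to 55748996 UMIs, and the 51 members together held 46387 and 71322 UMIs over tissue in Vehicle, and 42142 and 58929 in TREAT. Spots were divided into zones with no member in the rule. Tumour spots were those where 22 proliferation genes, summed over a spot and its neighbours, passed a threshold set on all spots, margin spots lay 1 to 3 spot steps outside, and brain spots at least 6 steps outside. Tumour held 1087 and 1723 spots in Vehicle and 372 and 795 in TREAT, which is 34.4%, 49.4%, 11.1% and 26.4% of each area, margin held 227 to 362 spots, and brain 1198 to 2565. Median depth in brain was 5365.5 and 4437.5 UMIs a spot in Vehicle against 14196 and 10079 in TREAT. A spot can hold several cells, so fewer cells of a type and less RNA per cell cannot be told apart. Levels below are CPM of the zone's summed counts, always in the order Vehicle 1+4, Vehicle 2+3, TREAT 1+4, TREAT 2+3. They are not read as relative amounts of different genes, because probe sets differ in yield. Sums over genes, and the part of 1 gene in a sum, describe counts and carry the same limit. Fold changes are log2 values with standard errors from edgeR's quasi-likelihood test over summed counts, with Benjamini-Hochberg adjustment over all genes tested and a threshold of 0.05. Members were also counted off tissue, where 2474 to 3201 of their UMIs lay in each area.

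Between tumour and brain, the members leaned towards the tumour. Of the 51, 47 had enough counts to be tested, 28 were higher in tumour and 4 were lower, with the capture area as a block. Over all 18325 genes tested, 33.7% were higher and 34.7% lower, so that the share called in either direction was close to that of all genes and only its direction was uneven, and the median log2 difference was 0.81 over the tested members and 0.05 over all genes. Cxcl3, Cxcr3, Ccr1l1 and Cxcl17 had too few counts to be tested. The 51 members summed to 1875, 1873, 2030 and 1926 CPM in tumour and to 442, 475, 423 and 414 CPM in brain, with no overlap. Much of the gap was 1 gene: Cxcl10 alone held 1279, 1101, 909.5 and 1202 CPM in tumour and 24.2, 44.1, 8.7 and 15 CPM in brain. All 12 genes of a mesenchymal glioma list were higher in tumour, while all 9 oligodendrocyte genes were lower. T and NK cell genes were higher in tumour as well, with 15 of 15 higher in tumour and a summed level of 165.9 to 242.5 CPM against 28.2 to 39.7 in brain. Macrophage genes had 10 of 12 higher and 1 lower (275 to 529 CPM against 82.6 to 150.4), while none of 8 microglia genes was higher and 4 were lower (294 to 540 against 311 to 578). Neutrophil genes had 2 of 6 tested higher (16.9 to 38.5 against 15.7 to 32.7). No gene of these lists was at 0, and their part in the results for the chemokines was not tested.

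The ligands of Cxcr3, which recruit activated T cells and NK cells, had the largest log2 differences of the 47 tested members. Cxcl10 stood at 1279, 1101, 909.5 and 1202 CPM in tumour and at 24.2, 44.1, 8.7 and 15 CPM in brain, with all tumour areas far above all brain areas. Its log2 difference was 5.70 ± 0.32 (n = 4 areas; edgeR adjusted p = 3.7e-09). Cxcl9, induced mainly by interferon-gamma, stood at 60.3, 94.8, 126 and 138 CPM in tumour against 2.18, 8.85, 2.41 and 3.89 CPM in brain. That is a log2 difference of 4.64 ± 0.30 (edgeR adjusted p = 1.4e-08). Their receptor Cxcr3 was barely captured, with 19, 18, 13 and 20 UMIs in all tumour spots of an area, and was too low for a test. All 16 genes of a fixed interferon-induced list were also higher in tumour.

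**Figure D1:**
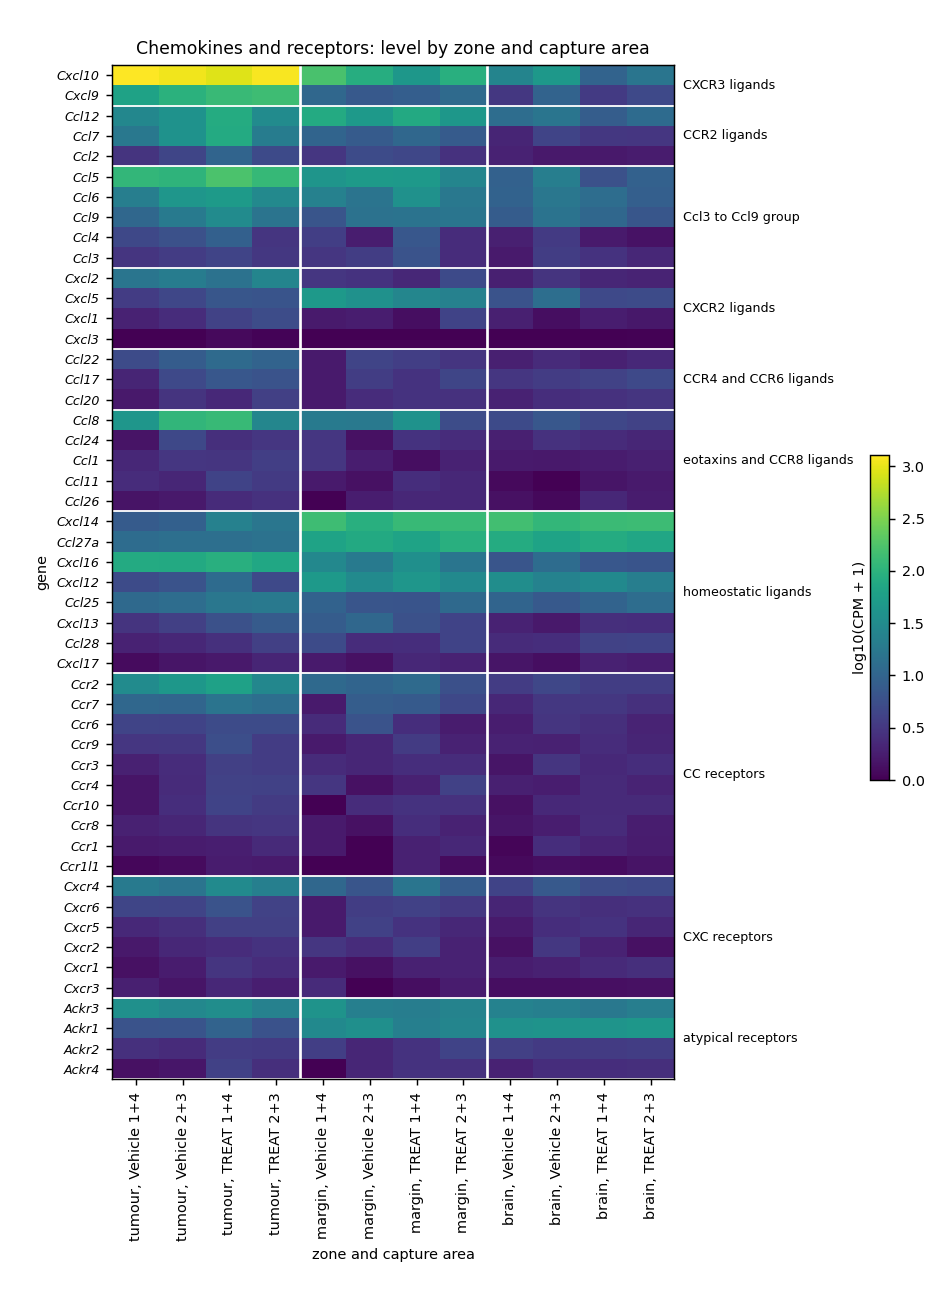
Heat map of 50 members (rows, by family) in tumour, margin and brain of each capture area (columns), with log10(CPM + 1) as colour. Cxcl10 is brightest in the 4 tumour columns (909.5 to 1279 CPM) and dim in brain (8.7 to 44.1 CPM), and Cxcl14, Ccl27a and Ackr1 are brighter in brain than in tumour.

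The ligands of Ccr2, which draws monocytes from blood, were all higher in tumour. Ccl7 stood at 16.7, 37.1, 77.9 and 19.1 CPM in tumour and 1.09, 3.32, 2.16 and 2.08 CPM in brain (log2 difference 3.88 ± 0.32, edgeR adjusted p = 1.5e-07). Ccl2, a main monocyte attractant, was at 1.96 to 8.96 CPM in tumour and 0.616 to 0.99 CPM in brain (log2 difference 2.42 ± 0.38). Ccl12, a mouse ligand of the same receptor, was at 26.6 to 80.4 CPM in tumour and 7.21 to 15.2 CPM in brain (1.73 ± 0.30). The receptor Ccr2 rose with them, from 2.57, 3.63, 2.67 and 2.65 CPM in brain to 30.7, 42.8, 58.9 and 26.2 CPM in tumour. Its log2 difference of 3.61 ± 0.20 had the smallest p of all members (edgeR adjusted p = 2.7e-09).

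Of the group of Ccl3, Ccl4, Ccl5, Ccl6 and Ccl9, ligands of inflammatory leukocyte receptors, 4 of 5 were higher in tumour. Ccl5, made by activated T cells and macrophages, stood at 112, 104, 167 and 119.8 CPM in tumour and 8.22, 20.2, 4.9 and 8.31 CPM in brain (log2 difference 3.62 ± 0.31, edgeR adjusted p = 1.8e-07). Ccl4 (2.15), Ccl6 (1.51 ± 0.21) and Ccl9 (0.81) also passed, and Ccl3 did not, with a log2 difference of 0.64 and an edgeR adjusted p of 0.052. Ccr1, a receptor for ligands of this group, averaged 0.91 CPM in tumour and 0.858 CPM in brain and was not called.

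The CXCR2 ligands, which act on neutrophils, did not move as one. Cxcl2 was at 15, 19.4, 13.7 and 24.7 CPM in tumour and 0.891, 1.9, 1.16 and 1.04 CPM in brain, a log2 difference of 3.73 ± 0.25 (edgeR adjusted p = 2.2e-08). Cxcl1 was lower in count, at 0.98 to 4.25 CPM in tumour and 0.316 to 0.891 CPM in brain (1.67). Cxcl5 stood at 2.57 to 5.69 CPM in tumour and 3.85 to 12.2 CPM in brain, which did not pass (log2 difference −0.56, edgeR adjusted p = 0.15). Cxcl3 had 6 UMIs in all. The receptor Cxcr2 averaged 1.29 CPM in tumour and 0.987 CPM in brain and was not called.

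Several further inflammatory ligands and receptors were higher in tumour. Ccl8, in mice a ligand of Ccr8, was at 42, 109, 124 and 25.5 CPM in tumour and 3.12 to 6.01 CPM in brain (log2 difference 3.84 ± 0.34, edgeR adjusted p = 2.9e-07). Its tumour level differed more between areas than that of most members, with Vehicle 2+3 and TREAT 1+4 high. Ccl11, an eosinophil attractant, differed by 2.29 ± 0.33, with at most 3.17 CPM in tumour. Ccl22, a ligand of Ccr4 made by dendritic cells and macrophages, rose from 0.891 to 1.42 CPM in brain to 4.15 to 10.7 CPM in tumour (2.63 ± 0.26). Ccl17, the other Ccr4 ligand, did not pass (0.19), nor did Ccr4 itself (0.73). Ccr7, which guides dendritic cells and T cells to lymph nodes, was at 9.21 to 14.7 CPM in tumour and 1.19 to 2.21 CPM in brain (2.57 ± 0.29). Its ligand features had no counts, which does not show that the ligands were absent, as it was not checked whether the assay held probes for them. Of the 11 CC receptors, 10 were tested and 7 were higher in tumour, and of the 6 CXC receptors, 5 were tested and 2 were higher (Cxcr4 and Cxcr6).

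Cxcl16, a membrane-bound ligand that also acts as a scavenger receptor, was at 79, 75.3, 90.3 and 69 CPM in tumour against 5.54, 11.7, 5.9 and 5.4 CPM in brain. The log2 difference was 3.40 ± 0.23 (edgeR adjusted p = 1.7e-08). Its receptor Cxcr6, found on tissue T cells, was at 3.09 to 5.23 CPM in tumour and 1.09 to 1.9 CPM in brain (1.10). Cxcl13, the B cell attractant, was at 1.96 to 6.85 CPM in tumour and 0.632 to 1.62 CPM in brain (1.47), and its receptor Cxcr5 was not called (0.56).

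The 4 members that were lower in tumour were a homeostatic trio and an atypical receptor. Cxcl14, made by some interneurons and epithelia, fell from 144, 113, 129.9 and 133 CPM in brain to 6.72, 7.91, 21.9 and 15.8 CPM in tumour (log2 difference −3.57 ± 0.23, edgeR adjusted p = 1.2e-08). Ccl27a, a ligand of Ccr10, fell from 80.3, 61.8, 81.6 and 67.3 CPM to 11.5, 12.8, 12.6 and 13.7 CPM (−2.67 ± 0.17, edgeR adjusted p = 1.5e-08); near-identical copies of this gene exist, so its count may hold reads of a copy. Cxcl12, which holds leukocytes and guides neural cells through Cxcr4, fell from 32.8, 22.9, 29.2 and 20.4 CPM to 4.15, 5.2, 11.3 and 3.84 CPM (−2.33 ± 0.21, edgeR adjusted p = 3.7e-07). Ackr1, the Duffy receptor of venules and red cells, fell from 36.2, 37.9, 39.5 and 43.1 CPM to 5.18, 5.46, 8.77 and 4.99 CPM (−2.86 ± 0.20, edgeR adjusted p = 2.4e-08). In all 4 genes the tumour and brain areas did not overlap. The 4 were picked by this same comparison, and the share of all genes without overlap was not computed.

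The receptors of Cxcl12 did not follow their ligand. Cxcr4, the signalling receptor, was at 17.9, 14.5, 29.5 and 21.1 CPM in tumour and 3.27, 6.32, 4.31 and 3.89 CPM in brain (log2 difference 2.102 ± 0.24). Ackr3, which takes Cxcl12 up, was at 35.5, 27, 32.8 and 22.3 CPM in tumour and 23.1, 20.7, 16.8 and 20.5 CPM in brain, which is 0.40 ± 0.16 with an edgeR adjusted p of 0.037. Astrocyte, oligodendrocyte and neuron genes were lower in tumour in the same spots (among them all 8 astrocyte genes), and their part in the lower members was not tested.

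**Figure D2:**
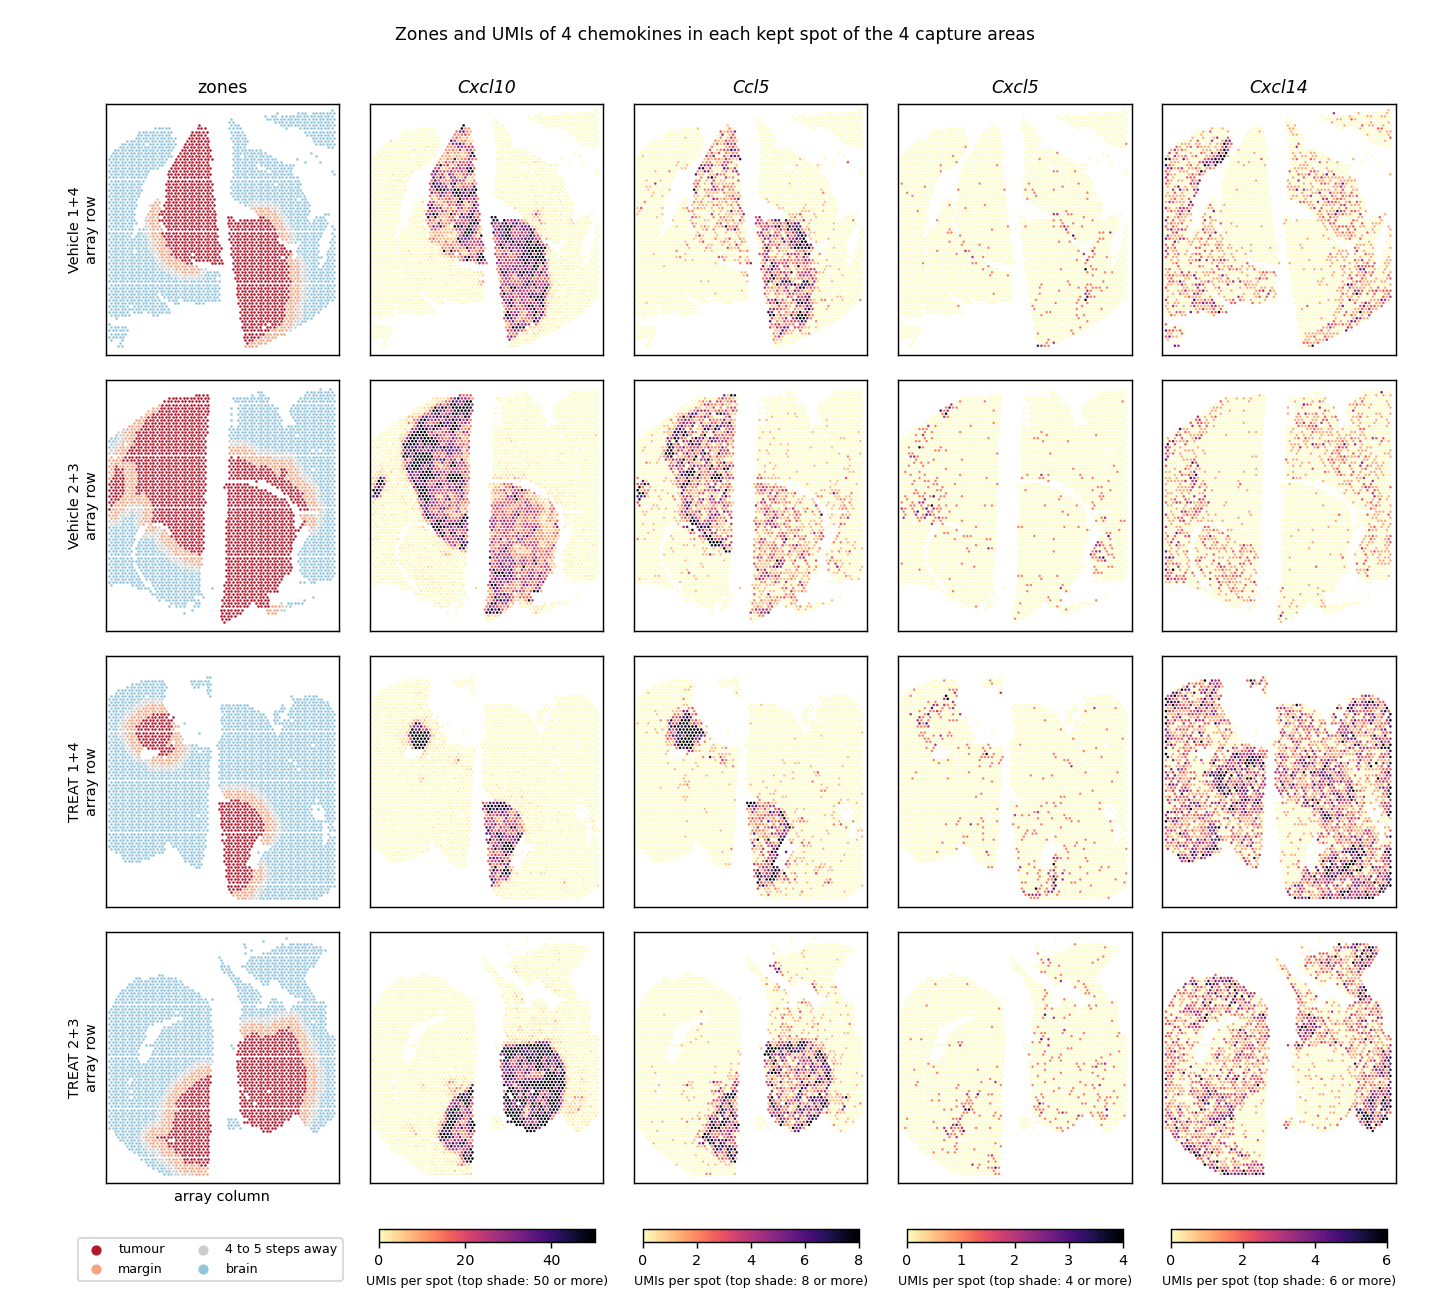
Maps of the 4 capture areas, 1 per row: the zones, then UMIs per spot of Cxcl10, Ccl5, Cxcl5 and Cxcl14, by array row and column. Cxcl10 and Ccl5 fill the tumour, Cxcl5 is sparse, with its highest mean CPM in the margin, and Cxcl14 is spread over the brain and low in tumour.

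The margin, the spots 1 to 3 steps outside the tumour edge, held 13 members above distant brain and none below. Over all genes tested, 4.58% were higher and 1.82% lower there, and the median log2 difference was 0.45 over the tested members and −0.11 over all genes. Among the 13 were Ccl12, Cxcl10, Cxcl5, Cxcl16, Ccl5, Ccr2, Ccl8, Ccl7, Cxcl13, Ccl6, Ccl2 and Ccr7. In Vehicle 1+4, Ccr7 had 1 UMI in the margin, at 0.697 CPM against 1.19 CPM in brain. Ccl2 had 3, 11, 12 and 7 UMIs in the margin. Spots scored alone, without their neighbours, left none of the 13 calls. That setting gave brain 299 spots in Vehicle 1+4 and 33 to 42 in each other area.

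Ccl12 stood higher in the margin (78.8, 47.5, 77 and 43.7 CPM) than in brain (11.8, 15.2, 7.21 and 11.1 CPM), a log2 difference of 2.28 ± 0.31 (edgeR adjusted p = 0.00079), and the margin was not called different from tumour (tumour against margin −0.55, edgeR adjusted p = 0.12). Cxcl5, known as an attractant of neutrophils, was at 47.4, 36.5, 25.5 and 22 CPM in the margin against 5.25, 12.2, 3.85 and 4.1 CPM in brain (2.33 ± 0.33, edgeR adjusted p = 0.00098). It was also above tumour there, with a tumour against margin difference of −2.89 ± 0.34 (edgeR adjusted p = 5.7e-06). Its level did not overlap between margin and either other zone, and the share of all genes without such overlap was not computed. Cxcl13 was at 3.24 to 9.8 CPM against 0.632 to 1.62 CPM in brain (2.099 ± 0.45). Microglia genes reached 657 to 1149 CPM in the margin, with 3 of 8 higher than in brain, macrophage genes had 6 of 12 higher, T and NK cell genes 2 of 15, and neutrophil genes 3 of 6 tested. Mesenchymal glioma genes had 8 of 12 higher, at 937 to 2335 CPM against 273 to 568 CPM in brain. Proliferation genes, which set the zones, had 10 of 22 higher, and interferon-induced genes 16 of 16. Their part in the margin values was not tested.

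Cxcl10 in the margin was at 165, 84.8, 43.3 and 91.3 CPM (2.01 ± 0.29 over brain, edgeR adjusted p = 0.00094). Counts per spot off tissue are set beside it. Off tissue, Cxcl10 had 0.597, 0.851, 0.249 and 0.631 UMIs a spot, against 1.02, 0.622, 0.63 and 1.17 in the margin, 0.145, 0.233, 0.132 and 0.171 in brain and 22.5 to 36.7 in tumour. Margin spots were therefore above off-tissue spots in 3 of 4 areas and brain spots in none. Brain was below off tissue in all 4 areas for Ccl5 as well, at 0.0493 to 0.107 UMIs a spot against 0.0879 to 0.143. The brain levels of Cxcl10 and Ccl5 were thus not above the off-tissue background. Of the other margin members, Ccr2 and Ccr7 were above off tissue in 3 areas and the rest in 4. In brain, 30 of the 51 members were above off tissue in all 4 areas, and in tumour 50 were. Cxcl9, Cxcl2, Ccl7, Ccl8, Ccl22, Ccr2 and Ccr7 were above it in only 1 of 4 areas in brain. That limits their brain levels given above. Counts per spot take no account of depth: in Vehicle 1+4, 1787 off-tissue spots held 1936331 UMIs and 1684 brain spots 10103009. The share of all features above off tissue was not computed.

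Set against the margin, the tumour held 17 members that were higher and 5 that were lower, beside 31.5% and 30.2% of all genes. Cxcl10 (3.69 ± 0.29) and Cxcl9 (3.60 ± 0.32) had the largest differences among the called members. The lower ones were Cxcl14 (−3.30 ± 0.23), Cxcl5, Cxcl12 (−2.66 ± 0.22), Ccl27a (−2.54 ± 0.18) and Ackr1 (−2.19 ± 0.21). Margin over brain, Cxcl12 differed by 0.34 and Cxcl14 by −0.27 on the log2 scale, and neither was called.

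The distance from the tumour edge gave a finer order, as a description with no test. The mean of the 4 areas was highest in the outer 1 to 2 steps of the tumour for 28 of the 51 members. The share of all features that peak there was not computed, so the count is not shown to be particular to the members. Some of the 28 were near the floor even there, such as Cxcl3 (0.213 CPM), Cxcl17 (0.866 CPM) and Ccr1l1 (1.01 CPM). Cxcl10 averaged 1125 CPM from 6 steps inward, 1319 CPM at 3 to 5 steps, 639 CPM in the outer 1 to 2 steps and 96 CPM in the margin. Cxcl9 followed a like course, with 109.9, 117, 65.4 and 8.62 CPM. Ccl22 ran the other way inside the tumour, with 5.25, 10.3 and 17.6 CPM from the centre outward and 2.2 CPM in the margin, and Ccr7 likewise, with 7.9, 16.3, 24.4 and 4.57 CPM. Ccl12 was highest in the outer 1 to 2 steps of the tumour (109, 96.4, 111 and 96.8 CPM in the areas) and averaged 35.3 CPM in the centre and 9.6 CPM from 10 steps outside. Its outer-rim level was nearly the same in all areas although its tumour-wide level ranged from 26.6 to 80.4 CPM.

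Cxcl5 had its highest mean in the margin (32.8 CPM), with 18.7 CPM in the outer tumour steps, 18.4 CPM at 4 to 5 steps outside and 3.1 CPM in the tumour centre. Cxcl13 was highest in the outer tumour steps (17.1 CPM, against 1.8 CPM in the centre and 6.22 CPM in the margin). Cxcl12 reached 36.8 CPM in the margin against 3.65 CPM in the tumour centre and 28.9 CPM at 4 to 5 steps outside. Cxcl14 climbed outward from 3.6 CPM in the centre to 11.2, 75.4 and 119.7 CPM, and was flat further out (130 to 134 CPM).

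**Figure D3:**
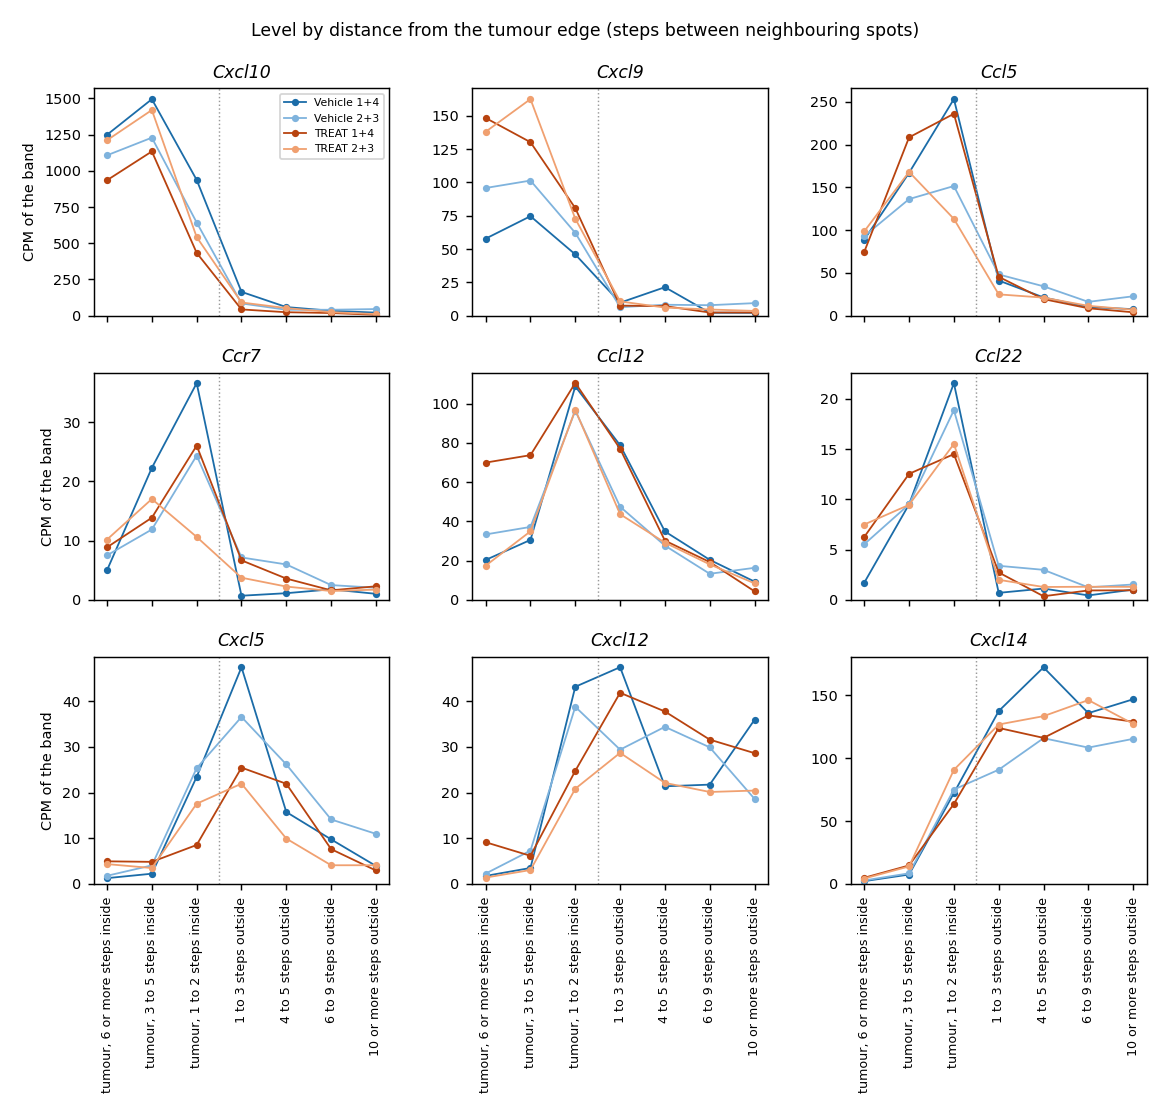
CPM of 9 members in bands of distance from the tumour edge (dotted line), with 1 line per capture area on linear axes. Cxcl10 drops across the edge from a mean of 639 CPM in the outer tumour steps to 96 CPM in the margin, and Cxcl5 has its highest mean in the margin, at 32.8 CPM.

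Within the tumour, the 5% of spots richest in a fixed gene list were compared with the other tumour spots, 19 to 86 spots an area, with the area as a block. The lists hold no chemokine or receptor. Spots rich in T and NK cell genes had 23 of 41 tested members higher and none lower, beside 10.4% and 9.26% of all genes. Ccl5 was at 423, 237, 475 and 238 CPM there against 100.04, 99.2, 154 and 115 CPM in other tumour spots (log2 difference 1.43 ± 0.12, edgeR adjusted p = 2.1e-07). Ccr7 was at 80.7, 37.9, 73.6 and 47.2 CPM against 7.16, 8.26, 12.3 and 10.7 CPM (2.53 ± 0.22). Ccl22 was at 33.8, 32.6, 61.7 and 27.7 CPM against 3.05, 6.11, 8.65 and 8.08 CPM (2.51 ± 0.26). Both genes are known from mature dendritic cells. Ackr1, low in tumour as a whole, was at 48.1, 34.4, 19 and 16.4 CPM against 3.58, 4.5, 8.35 and 4.51 CPM (2.52 ± 0.33). Ccr6, carried by B cells and some T cells, was at 7.12 to 24.7 CPM against 2.57 to 3.98 CPM (2.29 ± 0.35). Cxcl9 was modestly higher (0.72), and Cxcl10 was not called (0.12, edgeR adjusted p = 0.31). The median B and plasma cell list level in these spots was 275.8 CPM against 33.5 in other tumour spots, and that of dendritic cell genes 565 against 424. Microglia genes were at 561 CPM against 260.5 in other tumour spots, macrophage 507 against 341, astrocyte 1559 against 357 and oligodendrocyte 1948 against 370.1, and the part of those cells was not tested.

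Tumour spots rich in macrophage genes had 19 of 41 tested members higher and 1 lower, beside 19.4% and 17.9% of all genes. Ccl12 was at 74.5, 87.2, 195 and 132 CPM against 25.1, 36.2, 76.5 and 28 CPM (1.54 ± 0.17). Cxcl13 was at 8.76, 15.95, 11.3 and 38.8 CPM against 1.74, 2.51, 4.63 and 6.08 CPM (2.33 ± 0.33). Ccl9, a mouse Ccr1 ligand of myeloid cells, was higher by 1.45, Ccl6 by 1.69 and Cxcr4 by 1.19. Cxcl10 was the lower one, at 1219.5, 761, 407 and 478 CPM against 1281, 1110.1, 927 and 1219.8 CPM (−0.83 ± 0.17, edgeR adjusted p = 0.0006). Cxcl14 had the smallest p, at 46.7, 45.7, 102 and 98.8 CPM against 5.4, 6.87, 19.2 and 13.8 CPM (2.71 ± 0.18). In these spots the astrocyte list had a median of 3796 CPM against 353, oligodendrocyte 5197 against 368, microglia 1190.3 against 259, interferon-induced 4414 against 6741 and proliferation 1733 against 3496, and the part of these in the result was not tested.

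Tumour spots rich in interferon-induced genes had 6 of 36 tested members higher and 2 lower, beside 4.35% and 4.84% of all genes. Cxcl10 was at 3323, 2518, 2145 and 3092 CPM against 1172, 1005, 834 and 1089 CPM in other tumour spots, a log2 difference of 1.52 ± 0.07 (edgeR adjusted p = 7.3e-18). Cxcl9 was at 77.2, 139, 185 and 216 CPM against 59.5, 91.8, 122 and 134 CPM (0.68 ± 0.08). The others were Ccl12 (0.78 ± 0.11), Ccl7 (0.80 ± 0.15), Ackr3 (0.62) and Ccl5 (0.58). Ccl7 was higher in 3 of the 4 areas and slightly lower in TREAT 2+3 (16.7 against 19.2 CPM). Cxcl14 (−1.88 ± 0.35) and Cxcl12 (−1.60 ± 0.45) were lower, and Cxcl2 was not called (0.38, edgeR adjusted p = 0.17). The microglia list had a median of 247 CPM in these spots against 269 in other tumour spots.

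Tumour spots rich in hypoxia genes had 11 of 41 tested members higher and 2 lower, beside 12.9% and 8.22% of all genes, and 7 in all without Vehicle 2+3. Cxcl9 was lower, at 41.5, 50.8, 78.1 and 90.3 CPM against 61, 95.7, 128 and 139.5 CPM (−0.76 ± 0.16), and so was Cxcl10 (−0.52 ± 0.16). Ccl22 (1.70 ± 0.30) and Ccr7 (1.54 ± 0.27) were higher, and Cxcl14 was higher by 2.15 ± 0.23. The interferon list had a median of 4067 CPM in these spots against 6734 in others, astrocyte 3196 against 356, oligodendrocyte 4296 against 369, microglia 635 against 263, B and plasma cell 127 against 34.8 and proliferation 1868 against 3489. Their part was not tested.

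**Figure D4:**
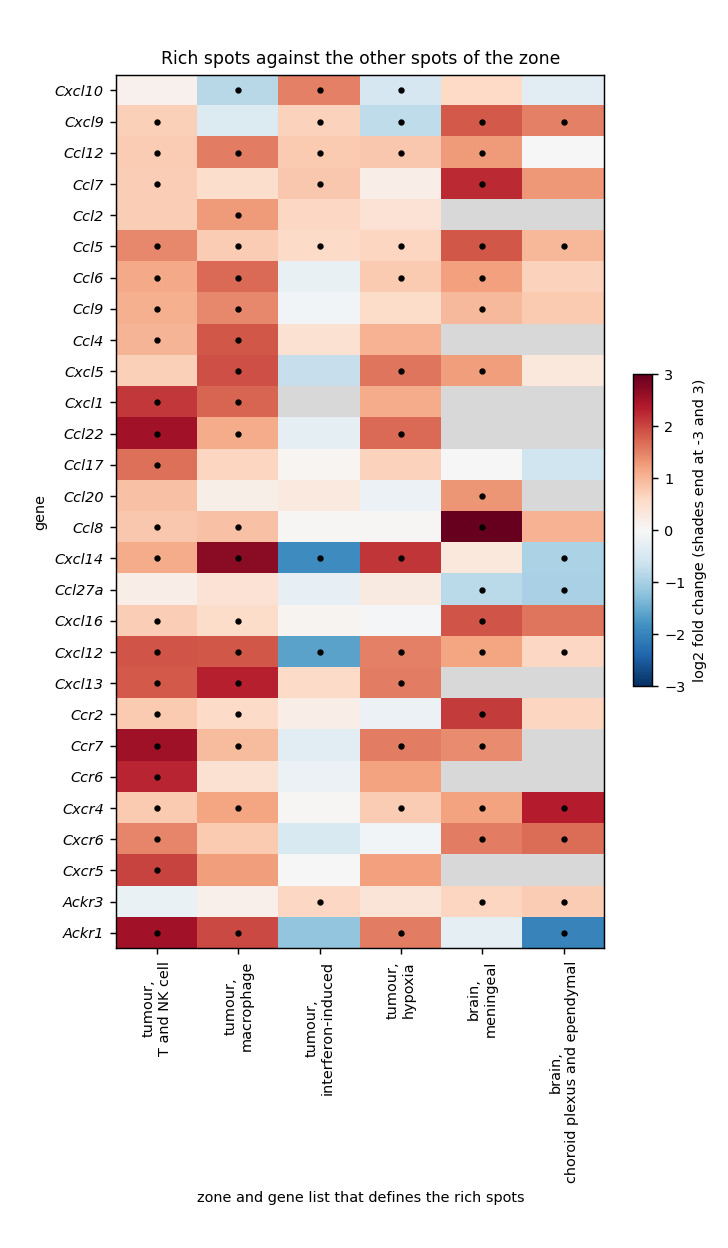
Log2 difference between spots rich in a gene list and the other spots of the zone, as colour; rows are members, columns are the 4 tumour and 2 brain lists, a dot marks an edgeR adjusted p under 0.05 and grey was not tested. Cxcl10 is at 1.52 in the interferon-induced column and −0.83 in the macrophage column, and the darkest reds of the T and NK cell column are Ccr7, Ackr1 and Ccl22.

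Further lists were described without a test. Tumour spots rich in dendritic cell genes had Ccl22 at 42.3, 53.3, 71.1 and 55.8 CPM, against 2.94 to 8.77 CPM in other tumour spots, and Ccr7 at 96.8, 39.4, 104 and 51.6 CPM against 7.03 to 11.9 CPM. The dendritic cell list itself summed to 387 to 495 CPM in tumour and 450 to 466 CPM in brain. Of its 8 genes, 3 were higher in tumour and 2 lower, so a high sum is not shown to mark dendritic cells. Tumour spots rich in endothelial genes had Ackr1 at 51.1, 33.4, 41.8 and 16.5 CPM against 3.75 to 7.71 CPM, and Cxcl12 at 23.2, 23, 77.7 and 8.24 CPM against 3.56 to 9.15 CPM. In all 4 areas each of these was higher in the rich spots.

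In brain away from the tumour, the same comparison was made for meningeal and for choroid plexus genes, over 60 to 128 rich spots an area. Spots rich in meningeal genes had 17 of 24 tested members higher and 1 lower, beside 17.1% and 16% of all genes. Ccl8 was at 36.1, 43.9, 37.8 and 11.6 CPM there against 2.77, 4.88, 2.51 and 2.8 CPM in other brain spots (3.25 ± 0.33). Cxcl12, which meningeal cells are known to make, was at 52.7, 54.9, 79 and 46.3 CPM against 32, 22, 27.7 and 19.4 CPM (1.19 ± 0.18). Ccl7 (2.23), Ccr2 (2.09), Cxcl16 (1.89), Ccl5 (1.87) and Cxcl9 (1.84) were higher too, and Ccl27a was lower (−0.80 ± 0.18). Over all brain spots, counts per spot were above off tissue in 0 of 4 areas for Ccl5 and in 2 for Cxcl16. For Ccl7, Ccl8, Ccr2 and Cxcl9 they were above it in 1. The meningeal spots alone were not set against off tissue. Macrophage genes had a median of 181 CPM in the meningeal spots against 42.3 in other brain spots, and their part was not tested.

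Brain spots rich in choroid plexus and ependymal genes had 6 of 23 tested members higher and 3 lower, beside 13.8% and 13.4% of all genes, and 4 in all without Vehicle 1+4. Cxcr4 was at 17.6, 31.8, 20.8 and 15 CPM against 2.77, 5.4, 3.72 and 3.41 CPM (2.36 ± 0.29). Over all brain spots its count per spot was above off tissue in 2 of 4 areas. Ackr1 was lower, at 14.6, 4.54, 14.1 and 6.23 CPM against 37, 39.1, 40.4 and 44.7 CPM (−2.001 ± 0.29), as were Ccl27a (−0.98) and Cxcl14 (−0.94). The oligodendrocyte list stood at a median of 20775 CPM in these spots against 6985, and the neuron list at 2046 against 6461, and their part was not tested.

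Ackr1 in brain was read against further lists. In brain spots rich in endothelial genes it was at 11.8, 10.7, 21.3 and 33.1 CPM, below the 36.9 to 43.4 CPM of other brain spots in each of the 4 areas. In spots rich in cortical neuron genes it was at 66.2, 63.6, 47.9 and 57.2 CPM against 34.3 to 42.1 CPM, and in spots rich in oligodendrocyte genes at 12.4, 4.77, 7.06 and 12.3 CPM against 37 to 44 CPM. Ccl27a shared that order, with 88.7, 144, 99.1 and 85.8 CPM in cortical spots and 24.9, 52.5, 28.2 and 29.8 CPM in oligodendrocyte spots. Brain spots rich in microglia genes had Ccl6 at 79.1, 85.2, 94 and 60.4 CPM against 6.24 to 14 CPM. Spots rich in astrocyte genes had Cxcl14 at 389.7, 140.1, 352 and 253 CPM against 112 to 139 CPM, and Cxcl5 at 18.8, 135, 27.2 and 27.2 CPM against 3.15 to 8.01 CPM. These values carry no test.

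TREAT was compared with Vehicle over 2 areas a group, with no area tied to an animal. The groups also differed in tumour share and in brain depth, and these were not separated from the hydrogel. In whole tissue 3 of 50 tested members were lower in TREAT and none was higher, beside 5.67% and 1.11% of all genes. Among these, Ccr2 was at 20.8 and 34.3 CPM in Vehicle and 14.1 CPM in both TREAT areas (−1.30 ± 0.29, edgeR adjusted p = 0.042). Cxcl16 was at 53.2 and 61.1 CPM in Vehicle and 24.2 and 37 CPM in TREAT (−1.23 ± 0.27, edgeR adjusted p = 0.042). Cxcl10 was at 825 and 863 CPM in Vehicle and 185 and 592 CPM in TREAT, which did not pass (−1.45, edgeR adjusted p = 0.083). Tumour made up 34.4% and 49.4% of spots in Vehicle and 11.1% and 26.4% in TREAT, and Ccr2 and Cxcl16 were both higher in tumour than in brain. The part of the tumour share in the whole-tissue values was not tested. None of the 3 was called without Vehicle 1+4, without Vehicle 2+3 or without TREAT 1+4, while 7 members were called without TREAT 2+3. With library totals as the scaling neither Ccr2 nor Cxcl16 was called, while 6 members were called higher and 1 lower.

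Within tumour spots, the areas of the groups overlapped for Ccr2 and Cxcl16 and neither was called, and 3 of 50 tested members were higher in TREAT with none lower, beside 9.63% and 16.3% of all genes. The 51 members together were at 1875 and 1873 CPM in Vehicle tumour and 2030 and 1926 CPM in TREAT tumour. Of these sums Cxcl10 alone held 1279 and 1101 CPM in Vehicle and 909.5 and 1202 CPM in TREAT. Ackr4, which scavenges Ccl19, Ccl21 and Ccl25, was at 0.373 and 0.54 CPM in Vehicle and 2.99 and 1.65 CPM in TREAT (1.81 ± 0.45, edgeR adjusted p = 0.012), on 8, 19, 32 and 40 UMIs. Cxcl1 was at 0.98 and 1.45 CPM in Vehicle and 3.08 and 4.25 CPM in TREAT (1.17 ± 0.37, edgeR adjusted p = 0.033), on 21, 51, 33 and 103 UMIs. Genes of these levels leaned the same way as a class. Those under 2 CPM, such as Ackr4, had a median log2 difference of 0.96 over 5327 genes, of which 1087 were called higher and 6 lower. Those of 2 to 10 CPM, such as Cxcl1, had a median of 0.42 over 4237 genes, of which 542 were called higher and 70 lower. Cxcl14 was at 6.72 and 7.91 CPM in Vehicle and 21.9 and 15.8 CPM in TREAT (0.93 ± 0.25, edgeR adjusted p = 0.019). In the same spots the oligodendrocyte list was at 525, 877, 4356 and 2224 CPM and the astrocyte list at 506, 696, 1613 and 986 CPM, higher in TREAT like Cxcl14, and their part in the result was not tested.

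Cxcl10 in tumour spots was at 1279 and 1101 CPM in Vehicle and 909.5 and 1202 CPM in TREAT, with groups that overlap. Its log2 difference was −0.60 ± 0.22 and did not pass (edgeR adjusted p = 0.056). With library totals as the scaling it was −0.17, and the median of all genes moved from 0.11 to 0.53 between these scalings. Cxcl9 was at 60.3 and 94.8 CPM in Vehicle and 126 and 138 CPM in TREAT and was not called. Library totals gave 14 members higher and none lower. The calls also turned on single areas: none was left without Vehicle 1+4, 4 without Vehicle 2+3, 9 without TREAT 1+4 (2 higher, 7 lower) and 8 without TREAT 2+3 (6 higher, 2 lower).

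The tumour pieces of an area differed among themselves. In TREAT 1+4 Ccl5 was at 113 CPM in the tumour spots of the right piece and 309 CPM in the left, and Cxcl14 at 13.5 and 44.3 CPM. Ccl7 in the same pieces ran the other way, at 97.6 and 25.6 CPM. The right piece held 260 tumour spots and the left 112, and the share of outer tumour steps in each was not compared. In Vehicle 1+4 Ccl5 was at 156 CPM in the middle piece and 66.3 CPM in the left. The pieces are not tied to animals in the labels, so no test was made.

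In the margin none of 22 tested members was called (0.0074% of all genes higher, 0% lower), with 2 at an unadjusted p under 0.05 and none called by DESeq2. In brain none of 47 was called by edgeR (0% of all genes in each direction), with 7 at an unadjusted p under 0.05 and 1 called by DESeq2, Cxcl10. It was at 24.2 and 44.1 CPM in Vehicle brain and 8.7 and 15 CPM in TREAT brain, a log2 difference of −1.64 ± 0.34 (edgeR adjusted p = 0.22). Per brain spot its UMIs were 0.145 and 0.233 in Vehicle and 0.132 and 0.171 in TREAT, all below the off-tissue count, while brain depth was greater in TREAT. Whether the gap between tumour and brain itself differed between the groups was tested as an interaction. No member of 50 was called by edgeR (0% of all genes), with 4 at an unadjusted p under 0.05 and 1 called by DESeq2 (Cxcl5). Among the terms with the smallest p were Cxcl5 (1.54 ± 0.41, edgeR adjusted p = 0.12) and Cxcl14 (0.91 ± 0.25, edgeR adjusted p = 0.12).

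**Figure D5:**
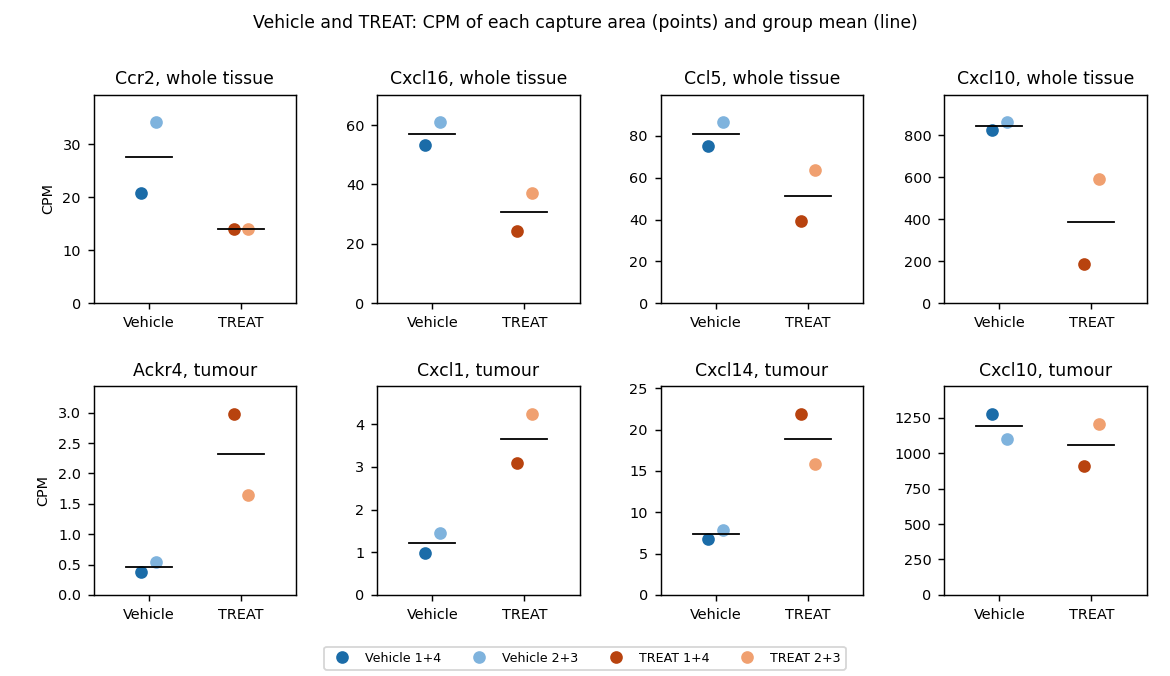
CPM of each capture area (points) and group mean (line) in Vehicle and TREAT, for 4 members in whole tissue (top) and 4 in tumour (bottom), on linear axes from 0. Ccr2 and Cxcl16 are lower in both TREAT areas in whole tissue, and Cxcl10 in tumour overlaps between the groups.

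Other genes of the pathway were read from 2 fixed lists. Of 21 further chemokine pathway genes, 11 were higher in tumour than in brain and 4 lower. Cx3cl1, the neuronal chemokine of microglia, had the largest drop (−4.61 ± 0.20), and Arrb1, an arrestin that ends receptor signalling, fell by 2.23. Rac2, a GTPase of leukocyte movement, was higher in tumour (2.07 ± 0.21) and in the margin (1.88). In tumour spots of TREAT against Vehicle, 1 was higher and 4 were lower, among them Pf4, a platelet and macrophage chemokine (−1.44 ± 0.25, edgeR adjusted p = 0.0013), and Arrb2 (−1.02, edgeR adjusted p = 0.0019). In the margin, in brain and in the interaction, none was called.

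Of 21 cytokines, receptors, signalling proteins and transcription factors of chemokine induction, 18 were higher in tumour than in brain and 1 was lower, Ifngr2 (−0.63). Irf1 (4.60 ± 0.19) and Irf7 (4.08 ± 0.22), which act downstream of interferons, and Nfkb2 (4.16 ± 0.16) had large differences. In the margin 9 were higher and none lower, with Irf7 at 1.93. In interferon-rich tumour spots 6 were higher and 1 lower, with Irf7 at 1.02 ± 0.07. In TREAT tumour Nfkb2 (−1.06 ± 0.17, edgeR adjusted p = 0.00084) and Irf8 (−0.61) were lower and Il6 was higher (1.04). The shares of all genes given above for each comparison are the background for these counts too.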

How the data were processed

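The authors deposited UMI counts per feature and spot for 4 capture areas of a probe-based spatial assay, made with Space Ranger 2.1.1 (mm10), per the submitters' processing notes, which list R 4.4.1 and Seurat as well. The counts were raw whole numbers, and spot positions with a tissue mark came with them. Of 32589 features, 304 were marked deprecated and left out. A spot was kept when it lay over tissue and had 500 UMIs or more. The tumour score of a spot was the summed CPM of 22 proliferation genes over it and its 6 neighbours, with Otsu's threshold over all areas. Groups of at least 20 connected spots above it were tumour, spots 1 to 3 steps outside were margin, and spots from 6 steps were brain; spots at 4 to 5 steps entered neither. Rich spots were the 5% of a zone's spots in each area with the highest summed CPM of a list.

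Counts were summed per area and zone and tested with edgeR 4.0.16 (quasi-likelihood, TMM scaling, filterByExpr; R 4.3.3, limma 3.58.1) in 14 comparisons from 12 fits, with the capture area as a block where zones or spots of 1 area were compared and without a block for TREAT against Vehicle. The code was first tested on simulated data. DESeq2 1.42.0, library totals, other filters, zone rules and left-out areas were alternatives. Sequences are from the RefSeq table (GRCm38.p6); 37 members had a window in it. Python 3.11.15 with numpy 2.4.6, pandas 2.3.3, scipy 1.17.1 and matplotlib 3.10.9 was used. Named members were those past the adjusted p, up to 15 a direction by smallest p, the 6 highest members as values where fewer than 6 passed, and the ligands and receptors of fixed axes. The members and lists were chosen with earlier results of these data known. Counts in sparse members carry counting error beside the spread of areas. A member enters the counts and sums but is not reported here.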

Additional observations from a re-analysis of the deposited data

Results flagged for a closer look

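Spots off tissue, which no comparison uses, held UMIs of the members in every area. These numbered 2474 in Vehicle 1+4, 3173 in Vehicle 2+3, 3093 in TREAT 1+4 and 3201 in TREAT 2+3, over 1787, 1504, 1640 and 1979 off-tissue spots. They were 5.06%, 4.26%, 6.84% and 5.15% of all UMIs of the members in the areas. Off tissue the members made up 1278, 1431, 1393 and 1111.5 CPM, against 1369.9, 1568, 756 and 1164 CPM over tissue. In TREAT 1+4 the off-tissue value was thus the higher one. The source of these counts was not tested.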

How the results depend on the processing

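Each comparison was recomputed with DESeq2, library totals, no count filter, a higher UMI minimum, other zone rules, the label numbers and each area left out. Of the members' values under these settings, 1933 kept their direction and side of the threshold, 165 passed it anew, 197 no longer passed and 14 turned direction. A member was counted as stable when it was called in the same direction in every setting that tested it. Many were not tested in all. Of those stable for tumour against brain, only Ccl5, Ccl7, Ccr2, Cxcl9, Cxcl10, Cxcl12, Cxcl14 and Cxcl16 were tested in all 12 alternatives. Ccl1, Ccl2, Ccl4, Ccl11, Ccl22, Ccr6, Ccr9, Cxcl2, Cxcl13 and Cxcr6 were tested in 11 and Cxcl1 in 10. Their count as stable thus rests on fewer settings. Stable in this sense were 19 of 32 members for tumour against brain, 15 of 22 for tumour against margin and 0 of 13 for margin against brain. For the rich spots they were 17 of 23 (T and NK cell), 13 of 20 (macrophage), 6 of 8 (interferon-induced), 4 of 13 (hypoxia), 9 of 18 (meningeal) and 3 of 9 (choroid plexus and ependymal), and for TREAT against Vehicle 0 of 3 in whole tissue and 0 of 3 in tumour.

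Scoring each spot without its neighbours set the tumour threshold at 23.1 CPM, made 2175, 3065, 3238 and 2584 spots tumour and left 299, 42, 33 and 42 spots as brain. It gave 8 calls for tumour against brain, 0 for margin against brain, 9 for TREAT against Vehicle in tumour and 1 for the difference between groups. It turned the direction of Ackr3 (−0.062) for tumour against brain, of Cxcl10 (−0.11), Ccr2 (−0.65), Cxcl16 (−1.22), Ccl12 (−0.14), Ccl8 (−2.29), Ccl5 (−0.60), Ccl6 (−0.13) and Ccr7 (−1.15) for margin against brain, of Cxcl5 (0.65) and Ccl12 (2.05) for tumour against margin, and of Ccl8 (−12.83) for the difference between groups. For Ccl7 in tumour, TREAT against Vehicle ran from −0.90 without TREAT 1+4 to 1.10 without TREAT 2+3. The cause was not tested.

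In whole tissue TREAT against Vehicle gave 8 calls with DESeq2, 7 with library totals and 0 to 7 with an area left out. In tumour it gave 14 with library totals, 5 with the proliferation threshold 1.5 times lower and 0 to 9 with an area left out. Leaving out an area gave 0 to 1 in margin, 0 to 1 in brain, 0 to 2 for the difference between groups, 7 to 14 in hypoxia-rich and 4 to 8 in choroid-rich spots. DESeq2 gave 1 in brain and 1 for the difference. The label numbers as a replicate block gave 21 calls in whole tissue, 9 in tumour, 0 in margin and 0 in brain. Areas with the same number correlated in their deviations at 0.337, 0.053, 0.105 and −0.177, and only 2 pairs exist, so the numbers are not shown to pair areas. Crossed numbers as a block in brain, chosen after seeing the data, gave 4 calls, all lower. Low counts limit the rare members, such as Cxcr3, Ccr1 and Ackr4.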
